A study of Mus musculus and Sus scrofa with 12 samples.

Results

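This comparison sets the trimethylation of histone H3 at lysine 4 (H3K4me3) against the acetylation of histone H3 at lysine 27 (H3K27ac) at the start sites of genes in the embryonic pig forelimb. The study profiled forelimbs of wild-type pig embryos at day 23 of gestation and of wild-type mouse embryos at E11.5, all from natural matings and untreated; the labels name no strain or breed. It comprises 12 samples, of which 4 were used for the comparison, namely 2 biological replicates of pig H3K4me3 and 2 of pig H3K27ac, taken from littermates. The assay was ChIPmentation, in which a transposase adds sequencing adapters to chromatin held by the antibody. Each mark came as 1 consensus list of peak positions, 18713 for H3K4me3 and 27566 for H3K27ac, of the 258842 peaks in the 6 lists of the study. Every one of 20609 protein-coding genes of the pig RefSeq annotation was assigned to 1 of 4 states. The state was both marks, H3K4me3 only, H3K27ac only or neither, by whether a peak overlapped the 1 kb on either side of any annotated transcription start site (TSS).

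H3K4me3 is deposited at promoters by SET1 and MLL methyltransferases, which bind unmethylated CpG islands through CXXC domains of the complexes, and it can be present at genes that are poised rather than transcribed. H3K27ac is deposited by the acetyltransferases p300 and CBP at active promoters and enhancers and cannot coexist on the same tail with the methylation of lysine 27 that Polycomb complexes place. In the early limb, many developmental regulators are known, mainly from mouse, to carry H3K4me3 together with Polycomb methylation where they are silent.

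The sequences below are the 200 bases upstream of the annotated start of 1 gene for each state (Sscrofa11.1, gene strand, 5′ to 3′), shown because the density of CpG dinucleotides, which stand in capitals, differed between the states. MEX3B, an RNA-binding protein gene, had both marks and the widest pair of peaks (chr7:50753120-50753319, minus strand). MN1, a transcriptional regulator gene, had the widest H3K4me3 peak without H3K27ac (chr14:45142477-45142676, minus strand). RCOR2, a corepressor gene, had the widest H3K27ac peak without H3K4me3 within 1 kb (chr2:8146480-8146679, plus strand). Its nearest H3K4me3 peak lay 1.17 kb away. PRRX1, a homeobox gene of limb mesenchyme, had neither mark within 1 kb (chr4:80502690-80502889, minus strand), with H3K4me3 1.08 kb and H3K27ac 1.17 kb away. MYOG, the gene of the muscle differentiation factor myogenin (chr9:113785313-113785512, minus strand), and ALB, the serum albumin gene (chr8:69643227-69643426, plus strand), were added after their values were seen, as a second example of H3K27ac only and of neither mark.
MEX3B: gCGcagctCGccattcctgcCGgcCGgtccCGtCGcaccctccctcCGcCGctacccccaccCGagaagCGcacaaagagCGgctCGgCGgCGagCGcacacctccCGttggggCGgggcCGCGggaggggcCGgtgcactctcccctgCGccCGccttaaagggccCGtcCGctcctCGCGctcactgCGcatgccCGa
MN1: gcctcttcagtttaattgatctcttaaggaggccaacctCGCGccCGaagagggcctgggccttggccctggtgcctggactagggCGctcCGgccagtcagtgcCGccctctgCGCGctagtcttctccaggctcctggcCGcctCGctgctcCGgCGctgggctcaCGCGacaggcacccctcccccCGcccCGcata
RCOR2: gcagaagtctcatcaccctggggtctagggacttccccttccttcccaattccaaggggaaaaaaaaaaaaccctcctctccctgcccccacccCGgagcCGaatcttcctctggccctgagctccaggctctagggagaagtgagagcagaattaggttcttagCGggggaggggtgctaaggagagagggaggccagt
PRRX1: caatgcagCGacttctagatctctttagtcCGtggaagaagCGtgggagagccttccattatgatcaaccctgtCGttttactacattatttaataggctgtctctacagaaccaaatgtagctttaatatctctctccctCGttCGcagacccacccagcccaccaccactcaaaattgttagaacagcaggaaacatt
MYOG: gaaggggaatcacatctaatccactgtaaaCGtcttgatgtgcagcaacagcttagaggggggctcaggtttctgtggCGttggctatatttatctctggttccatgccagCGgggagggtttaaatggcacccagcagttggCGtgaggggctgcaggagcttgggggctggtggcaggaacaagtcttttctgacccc
ALB: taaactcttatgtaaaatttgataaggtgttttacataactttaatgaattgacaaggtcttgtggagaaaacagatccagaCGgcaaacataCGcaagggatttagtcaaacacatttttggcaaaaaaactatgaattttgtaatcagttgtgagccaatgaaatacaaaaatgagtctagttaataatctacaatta
These windows held 28 CpGs at MEX3B and 16 at MN1, against 3 at RCOR2, 6 at PRRX1, 4 at MYOG and 2 at ALB.

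Both marks together were the commonest state over all genes as counted here, and H3K27ac without H3K4me3 the rarest. Both were called at 9283 of 20609 genes (45%, 95% Wilson interval 44.4 to 45.7), H3K4me3 only at 4087 (19.8%, 19.3 to 20.4), H3K27ac only at 333 (1.62%, 1.45 to 1.80) and neither at 6906 (33.5%, 32.9 to 34.2). H3K4me3 thus lay at 13370 genes (64.9%) and H3K27ac at 9616 (46.7%). Among genes with H3K4me3, 69.4% also had H3K27ac (68.7 to 70.2), whereas 96.5% of genes with H3K27ac also had H3K4me3 (96.1 to 96.9). Of the 7239 genes without H3K4me3, 4.60% had H3K27ac (4.14 to 5.11). With the wider 50% of each list alone, 2133 genes had H3K27ac only, and 73.05% of genes with H3K27ac had H3K4me3. This cut fell at the median of each list, 1679 bp for H3K4me3 and 1164 bp for H3K27ac. A gene whose peaks of both marks lay between these widths therefore kept H3K27ac alone, so the rise follows in part from the unequal cut. In that setting the state without either mark was the commonest (46.8% of genes, against 28.1% with both), as it was among genes with 1 annotated TSS (48.0%, against 32.6%). All intervals cover counting error only, since each list is a single consensus without values per animal, and genes are not replicates. Whole forelimbs were used, so a mark in few cells and a weak mark in many cannot be told apart, nor can 2 marks in the same cells from 2 marks in different cells.

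The genes in each state differed in ways that bear on how they could be called. Genes with 1 annotated TSS made up 40.2% of genes with both marks, 49.5% of those with H3K4me3 only, 60.7% of those with H3K27ac only and 79.6% of those with neither. Placeholder LOC symbols, mostly genes without an established ortholog name, accounted for 5.60%, 6.61%, 24.3% and 47.3% of the same states in that order. The median gene length was 33704 bp with both marks, 19614 bp with H3K4me3 only, 16434 bp with H3K27ac only and 7036 bp with neither. The share of genes with both marks was 32.6% among the 11456 genes with 1 TSS, 56.2% among the 5563 with 2 or 3, and 67.5% among the 3590 with 4 or more. More start sites give more windows in which a peak can be found, and the part of this in the states was not tested.

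Most peaks of both marks spanned the TSS, with their centres downstream of it, and H3K4me3 reached further into the gene. Among the 3733 genes with both marks and 1 annotated TSS, the widest H3K4me3 peak ran, at the median, from position -616 to position 1228 (bp from the TSS, negative upstream), and the widest H3K27ac peak from -583 to 940. H3K4me3 covered the TSS itself at 93.8% of these genes and H3K27ac at 90.4%. The upstream edges of the marks were thus close, and most of the difference in width lay on the gene side. H3K4me3 had a similar extent at the 2023 such genes with H3K4me3 only, from -567 to 1265. At the 202 such genes with H3K27ac only, the H3K27ac peak ran from -220 to 936 and covered the TSS in 59.4% of cases.

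**Figure D1:**
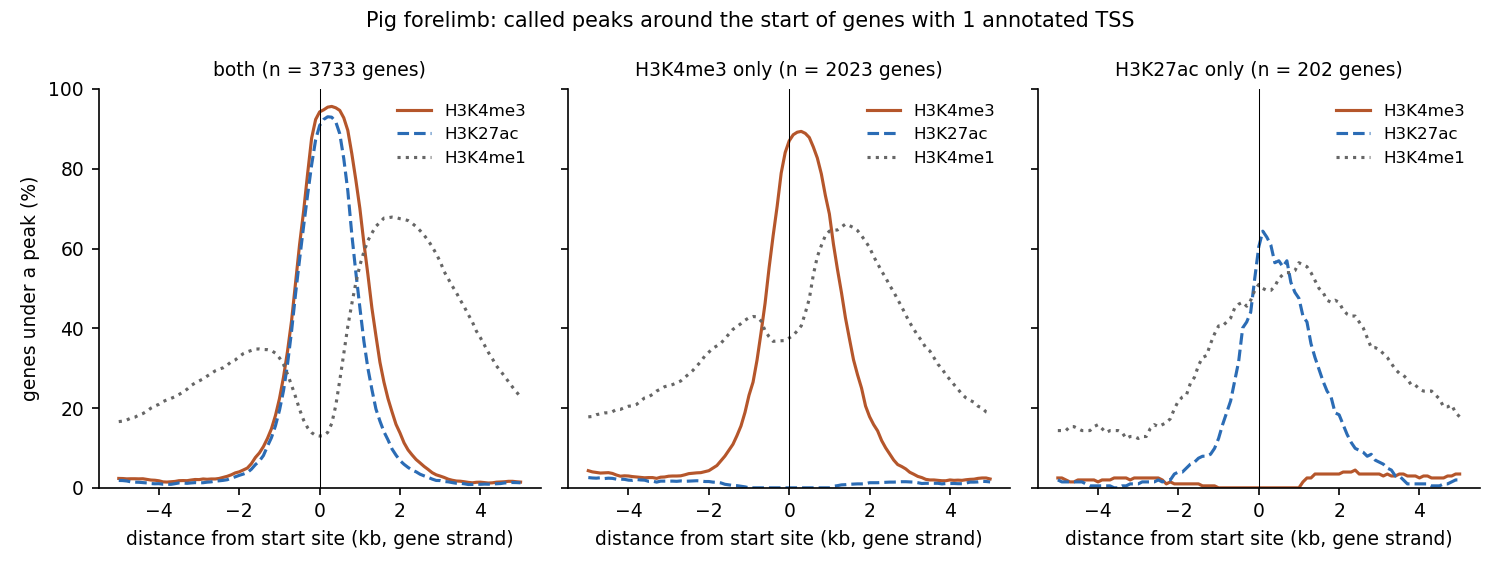
Share of genes with 1 annotated TSS that lay under a called peak (y axis, percent) at each distance from the TSS (x axis, kb along the gene's strand), for H3K4me3 (solid), H3K27ac (dashed) and H3K4me1 (dotted), in genes with both marks (3733), H3K4me3 only (2023) and H3K27ac only (202). H3K4me1 dips at the TSS to 13.0% of genes with both marks, against 37.6% of genes with H3K4me3 only and 51.0% of genes with H3K27ac only.

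H3K4me1, the monomethylated form found at enhancers and promoter flanks, took no part in defining the states and lay differently in each. It covered the TSS at 13.0% of single-TSS genes with both marks (11.9 to 14.1), 37.6% of those with H3K4me3 only (35.5 to 39.7) and 51.0% of those with H3K27ac only (44.1 to 57.8). At 1 kb downstream the shares were closer, at 55.8%, 64.4% and 56.4% in the same order. Within 1 kb of any TSS an H3K4me1 peak was called at 77.5% of genes with both marks, 81.4% with H3K4me3 only, 73.0% with H3K27ac only and 26.7% with neither. Over all coding genes the share was 61.2%. Among single-TSS genes, those with both marks and those with H3K4me3 only thus differed more in H3K4me1 over the start site itself than 1 kb downstream. The shares within 1 kb cover all genes and all their start sites, so they are not set against those of single-TSS genes. For pig H3K4me1 the design text names a single biological replicate while the sample labels name 2, so this list may rest on 1 set of embryos.

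At genes with both marks the H3K4me3 peak was usually the wider, by a modest factor. The widest H3K4me3 peak had a median width of 1907 bp and the widest H3K27ac peak 1589 bp (intervals 1891 to 1922 and 1578 to 1599). The ratio of H3K4me3 to H3K27ac width had a median of 1.14 (1.13 to 1.14), with 10% of genes below 0.977 and 10% above 1.66. H3K4me3 was wider at 8079 of the 9283 genes (87%), H3K27ac was wider at 1194 (12.9%), and the widths were equal at 10. Large differences were uncommon: H3K4me3 was at least 2 times as wide at 475 genes (5.12%) and H3K27ac at 11. The 2 widest peaks overlapped at 8990 genes (96.8%), and at 5360 (57.7%) the H3K27ac peak lay wholly inside the H3K4me3 peak, while the reverse held at 171 (1.84%). The widths went together across genes, with a Spearman correlation of 0.679 over 9283 genes and 0.698 over the 8216 with a single peak of each mark, where neighbouring genes can share a peak. Peak width is set by the peak caller as well as by the chromatin, and peak heights were not used here.

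**Figure D2:**
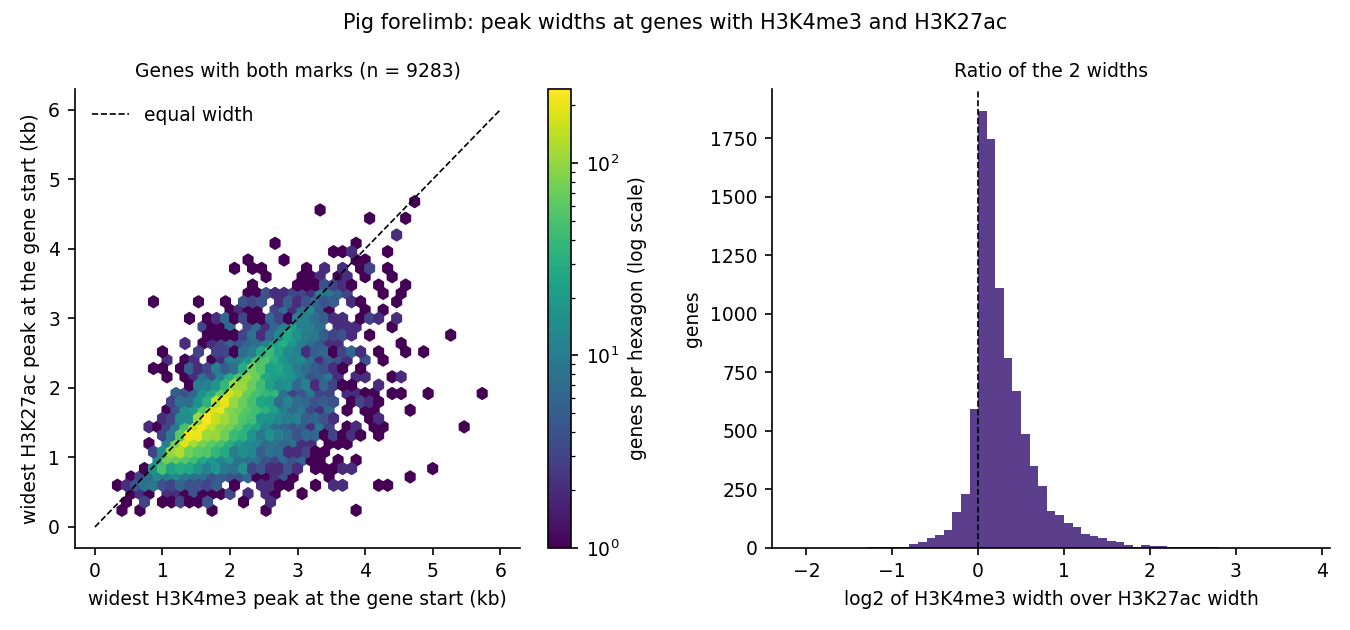
Left, width of the widest H3K27ac peak (y axis, kb) against that of the widest H3K4me3 peak (x axis, kb) at the 9283 genes with both marks, with the number of genes per hexagon on a log colour scale and a dashed line at equal width; right, histogram of the log2 ratio of H3K4me3 to H3K27ac width. Most genes lie just below the line of equal width, and 475 genes form a tail where H3K4me3 was at least 2 times as wide.

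Among genes with both marks, the largest ratio of widths was at MTA1, a subunit of the NuRD deacetylase complex, with 3854 bp of H3K4me3 and 287 bp of H3K27ac, a ratio of 13.4. BBC3, which encodes a proapoptotic BCL2-family protein, followed with 2595 bp and 240 bp, a ratio of 10.8. SOX9, the master regulator of chondrogenesis, had 4205 bp of H3K4me3 and 668 bp of H3K27ac, a ratio of 6.30. RARA, a retinoic acid receptor, had 4709 bp and 716 bp, a ratio of 6.58, in peaks that did not overlap. The other 6 of the 10 were BRD1 (7.16), CACNG7 (6.90), PRPF6 (6.73), GDF9 (6.39), UHRF1 (6.31) and MED16 (6.22), of which PRPF6 and GDF9 shared their H3K4me3 peak with a neighbour. In 4 of the 10 genes the widest peaks of the marks did not overlap, so the ratio there compares separate peaks near different start sites or flanks.

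The smallest ratio was at GNG3, a G protein subunit gene of neurons, with 841 bp of H3K4me3 and 3304 bp of H3K27ac, a ratio of 0.255, and both peaks were shared with the neighbouring BSCL2. MRVI1 (0.397), LRRN4CL (0.409), BRMS1 (0.423), PLA2G4E (0.429), IFITM3 (0.456), ATP5G2 (0.471), BTBD11 (0.476), RNF183 (0.488) and MYLK (0.523) followed. MYLK encodes the myosin light chain kinase of smooth muscle and had 1394 bp of H3K4me3 and 2666 bp of H3K27ac. In 7 of these 10 genes the widest peaks did not overlap, against 293 of all 9283 genes with both marks (3.16%). IFITM3, ATP5G2 and PLA2G4E were the exceptions, with the narrow H3K4me3 peak mostly inside the H3K27ac peak.

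The widest pairs of peaks, by the sum of the 2 widths, included genes of growth factor receptors and of RNA-binding proteins. MEX3B had 4730 bp of H3K4me3 and 4700 bp of H3K27ac, and IGF2BP1, an RNA-binding protein of fetal growth, had 4544 bp and 4436 bp. TSC22D1 had 4505 bp and 4191 bp, in peaks shared with LOC100523690. MYCN, a driver of proliferation in limb mesenchyme, had 4117 bp and 4407 bp and 17 distal H3K27ac peaks nearest to it. IGF1R, the receptor of insulin-like growth factors, had 4294 bp and 4011 bp with 15 distal peaks. PDGFRA, a receptor of mesenchymal progenitors, had 4312 bp and 3715 bp. TOB2, DDR1 (a collagen receptor), MDFI (an inhibitor of MyoD-family factors) and CD248 (endosialin, of stromal cells) completed the 10, with H3K4me3 widths of 3927 to 5266 bp and H3K27ac widths of 2717 to 4057 bp.

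How often H3K27ac accompanied H3K4me3 did not increase steadily with the width of the H3K4me3 peak. When the 13370 genes with H3K4me3 were ordered by the width of the peak and split in 10 equal bins, H3K27ac was present at 53.9% of genes in the narrowest bin (51.3 to 56.6; 224 to 1268 bp). It was present at 78.0% in the fifth (75.7 to 80.2; 1772 to 1913 bp) and at 64.5% in the widest (61.9 to 67.0; 2856 to 5763 bp). The widest H3K4me3 peaks were therefore accompanied by H3K27ac less often than peaks of middle width. The median ratio of widths at genes with both was 1.34 in the widest bin, against 1.12 in the fifth. The bins were made on the H3K4me3 width, which also enters this ratio, so its rise follows in part from the binning. In the opposite direction, 87.8% of genes in the narrowest of 10 bins of H3K27ac width had H3K4me3 (85.6 to 89.7), and 95.01% to 98.7% in each of the other bins.

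**Figure D3:**
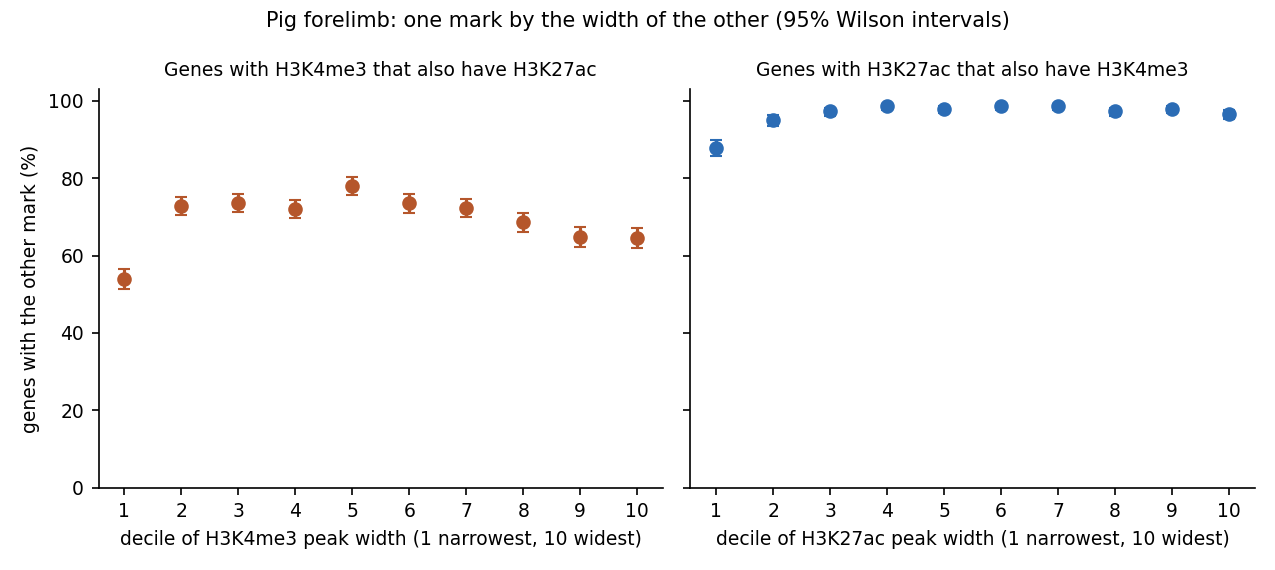
Left, percent of genes with H3K4me3 that also had H3K27ac (y axis) by decile of H3K4me3 peak width (x axis); right, percent of genes with H3K27ac that also had H3K4me3 by decile of H3K27ac peak width. Points are shares and bars 95% Wilson intervals; on the left the share is 53.9% in the narrowest, 78.0% in the fifth and 64.5% in the widest decile.

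Genes with H3K4me3 only, which by definition had no H3K27ac within 1 kb, lay nearer to H3K27ac at the median than genes with neither mark. The nearest H3K27ac peak lay at a median of 26519 bp from a TSS of the gene, 148 of the 4087 genes (3.62%) had a peak between 1 and 2.5 kb away, and at 1188 (29.1%) the nearest lay over 50 kb away. An H3K27ac peak lay somewhere on the gene body in 906 cases (22.2%). At genes with neither mark the median was 43042 bp, 41.2% lay over 50 kb away and 10.7% had H3K27ac on the gene body. The medians leave out genes on sequences without an H3K27ac peak. The widest H3K4me3 peaks in this state lay at MN1 (5763 bp, chromosome 14 at 45093660 to 45142476), with the nearest H3K27ac 47.8 kb away but 12 distal H3K27ac peaks nearest to it, and at BCORL1 (5272 bp), a gene of a Polycomb-associated corepressor, 22.5 kb away. IRX2, an Iroquois homeobox gene, and C16H5orf38 shared a peak of 4852 bp with H3K27ac 18.8 kb away from IRX2. PRDM16 (4758 bp), a chromatin regulator with a SET domain, had H3K27ac 2.22 kb away and 4 H3K27ac peaks on the gene. HS3ST3B1 (4364 bp) had it 1.93 kb and SAMD10 (4368 bp, shared with PRPF6) 1.64 kb away, so the state of these 3 genes turned on the 1 kb limit. CAPN10 (4345 bp), TRIM8 (4325 bp) and EGFL7 (4309 bp), which encodes a secreted factor of endothelial cells, completed the 10, with H3K27ac 144, 7.23 and 27.5 kb away.

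The 333 genes with H3K27ac only had narrower H3K27ac peaks, with a median of 1217 bp (1127 to 1319) against 1589 bp at genes with both marks. H3K4me3 lay between 1 and 2.5 kb from a TSS at 32 of them (9.61%) and at a median of 28488 bp. The widest peaks lay at RCOR2 (3823 bp), PARP10 (3733 bp) and MYH7 (3464 bp), the slow skeletal and cardiac myosin heavy chain, on chromosome 7 at 75650841 to 75672908. SLC39A4 (3306 bp), FERMT3 (3295 bp), MKX (3282 bp), TMUB1 (3237 bp), CKM (3080 bp), C3H16orf54 (3001 bp) and ITGB2 (2988 bp) followed. CKM encodes muscle creatine kinase, MKX a homeobox factor of tendon, and FERMT3 and ITGB2 an adhesion adaptor and an integrin of blood cells. MYH7 had its nearest H3K4me3 peak 20.8 kb away, MKX 202 kb, FERMT3 13.8 kb and ITGB2 16 kb. RCOR2, TMUB1, CKM and PARP10 had H3K4me3 1.17, 1.26, 1.9 and 2.13 kb away, so for these 4 the state turned on the 1 kb limit.

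Distal H3K27ac, at peaks away from every annotated TSS and from H3K4me3, also differed with the state. At least 1 of the 15842 distal peaks had the gene as its nearest within 500 kb at 36.4% of genes with both marks, 29.1% with H3K4me3 only, 45.1% with H3K27ac only and 17.8% with neither, against 28.9% of all genes. The share was lowest at genes with neither mark, and that of genes with H3K4me3 only was close to that of all genes. The mean number per gene was 1.06, 0.653, 1.27 and 0.370 in the same order. Longer genes with more space around them collect more distal peaks, and the part of gene spacing in these values was not tested.

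CpG content was high in both states with H3K4me3 and low in both states without it. The ratio of observed to expected CpGs in the 1 kb around the 5′ end of the gene had a median of 0.763 with both marks (0.759 to 0.767), 0.720 with H3K4me3 only (0.713 to 0.726), 0.328 with H3K27ac only (0.314 to 0.350) and 0.273 with neither (0.268 to 0.278). A ratio of at least 0.6, a common criterion of a CpG island, was found at 81.7%, 70.5%, 15.02% and 7.84% of these states in that order, against 53.7% of all genes. Among genes with H3K4me3, the share with H3K27ac did not change steadily with the ratio: it was 64.3% below 0.2 (336 genes), 56.9% at 0.2 to 0.4, 58.3% at 0.4 to 0.6, 70.9% at 0.6 to 0.8, 74.5% at 0.8 to 1 and 71.04% over 1. With the wider 50% of each list alone, the median of genes with H3K27ac only was 0.730. That cut was higher for H3K4me3 (1679 bp) than for H3K27ac (1164 bp). Genes that lost only their H3K4me3 peak by it entered this state.

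Short motifs in the 200 bases upstream followed the same division. The letters GGGCGG, the core of the GC box, were found on either strand at 57.1% of genes with both marks and 59.3% with H3K4me3 only. The shares were 18.9% with H3K27ac only and 13.7% with neither, against 42.4% of all 20609 genes. TATAAA, the core of the TATA box, was found at 4.78%, 4.62%, 7.81% and 14.9% in the same order, against 8.20% of all genes. CANNTG, the letters of the E-box bound by MyoD-family and TWIST factors, was found at 46.1%, 49.8%, 71.8% and 65.2%, against 53.7% of all. CCAAT differed least, at 29.7%, 25.01%, 25.8% and 26.7%, against 27.7% of all. Each of these letter strings moves with base composition, and a match is a description of the sequence. Among the windows printed above, GGGCGG occurred at MEX3B and MN1, CCAAT at RCOR2 and ALB, and CANNTG at PRRX1, MYOG and ALB.

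Gene classes defined by symbol or description differed widely in state. Classes needed in every cell mostly had both marks: 73 of 81 cytosolic ribosomal protein genes, 28 of 31 genes of spliceosomal and SR proteins, 32 of 36 replication genes, 40 of 46 genes of respiratory complex I and 35 of 43 proteasome genes, against 45% of all genes. H3K27ac was present at 91.3% of the cytosolic ribosomal protein genes with H3K4me3 (83.0 to 95.7). Their 7 members with H3K4me3 only were RPL28, RPLP2, RPS2, RPS9, RPS15, RPS21 and the muscle paralog RPL3L, with peaks of 1014 to 2721 bp, and RPL10L, a testis paralog, had neither. Numbered zinc finger genes, most of them repressors of the KRAB family, were also mostly in this state, at 202 of 256 with both marks and 34 with H3K4me3 only. Median H3K4me3 widths were 2006 bp at cytosolic ribosomal protein genes and 1800 bp at zinc finger genes, against 1913 bp at all genes with H3K4me3. With the wider 50% of each list, 46 of 81 cytosolic ribosomal protein genes had both marks and 18 had H3K27ac only. Of the 256 zinc finger genes, 113 had both and 56 H3K27ac only in that setting, against 28.05% and 10.35% of all genes.

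In several classes of developmental regulators, and in potassium channel subunits, the share with H3K4me3 only was above the 19.8% of all genes. Potassium channel subunits had H3K4me3 only at 51 of 93 genes and both marks at 14, so that 21.5% of those with H3K4me3 had H3K27ac (13.3 to 33.0). KCNA1, a channel of axons, had the widest such peak of its class at 3211 bp, while KCNAB2 had 3177 bp of H3K4me3 and 2053 bp of H3K27ac. Forkhead factors had H3K4me3 only at 22 of 43 genes and both at 13. Those with both marks were FOXO1, FOXO3, FOXP1, FOXP2, FOXK1, FOXK2, FOXN2, FOXN3, FOXJ2, FOXJ3, FOXP3, FOXA3 and the proliferation factor FOXM1. FOXO4 and FOXO6 differed from FOXO1 and FOXO3 in having H3K4me3 only. The tissue specifiers FOXA1, FOXC1, FOXC2, FOXD3, FOXF1 and FOXL2 also had H3K4me3 only, with 3837 bp at FOXF1, a factor of visceral mesoderm. Homeobox genes outside the HOX clusters had both marks at 48 of 179, H3K4me3 only at 54, H3K27ac only at 3, among them MKX and PROX2, and neither at 74. DLX5 and DLX6, factors of the limb ectodermal ridge known from mouse, had H3K4me3 only, at 4031 and 2552 bp.

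Classes of tissues other than the limb mostly had neither mark, against 33.5% of all genes. Of 1679 olfactory receptor genes, 1669 had neither, 5 had H3K4me3 only and 5 H3K27ac only, so that peaks were called at 0.298% of them for each mark. Keratin genes had neither at 32 of 35, and the simple-epithelium keratins were the exceptions: KRT8 and KRT19 had both and KRT18 had H3K4me3 only. Taste receptors had neither at 19 of 21, chemokines and their receptors at 37 of 46 and interleukins and their receptors at 43 of 71. The 4 chemokine genes with both marks were CXCL12, with 3233 bp of H3K4me3 and 2443 bp of H3K27ac, its receptor CXCR4, CX3CL1 and CCL25.

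**Figure D4:**
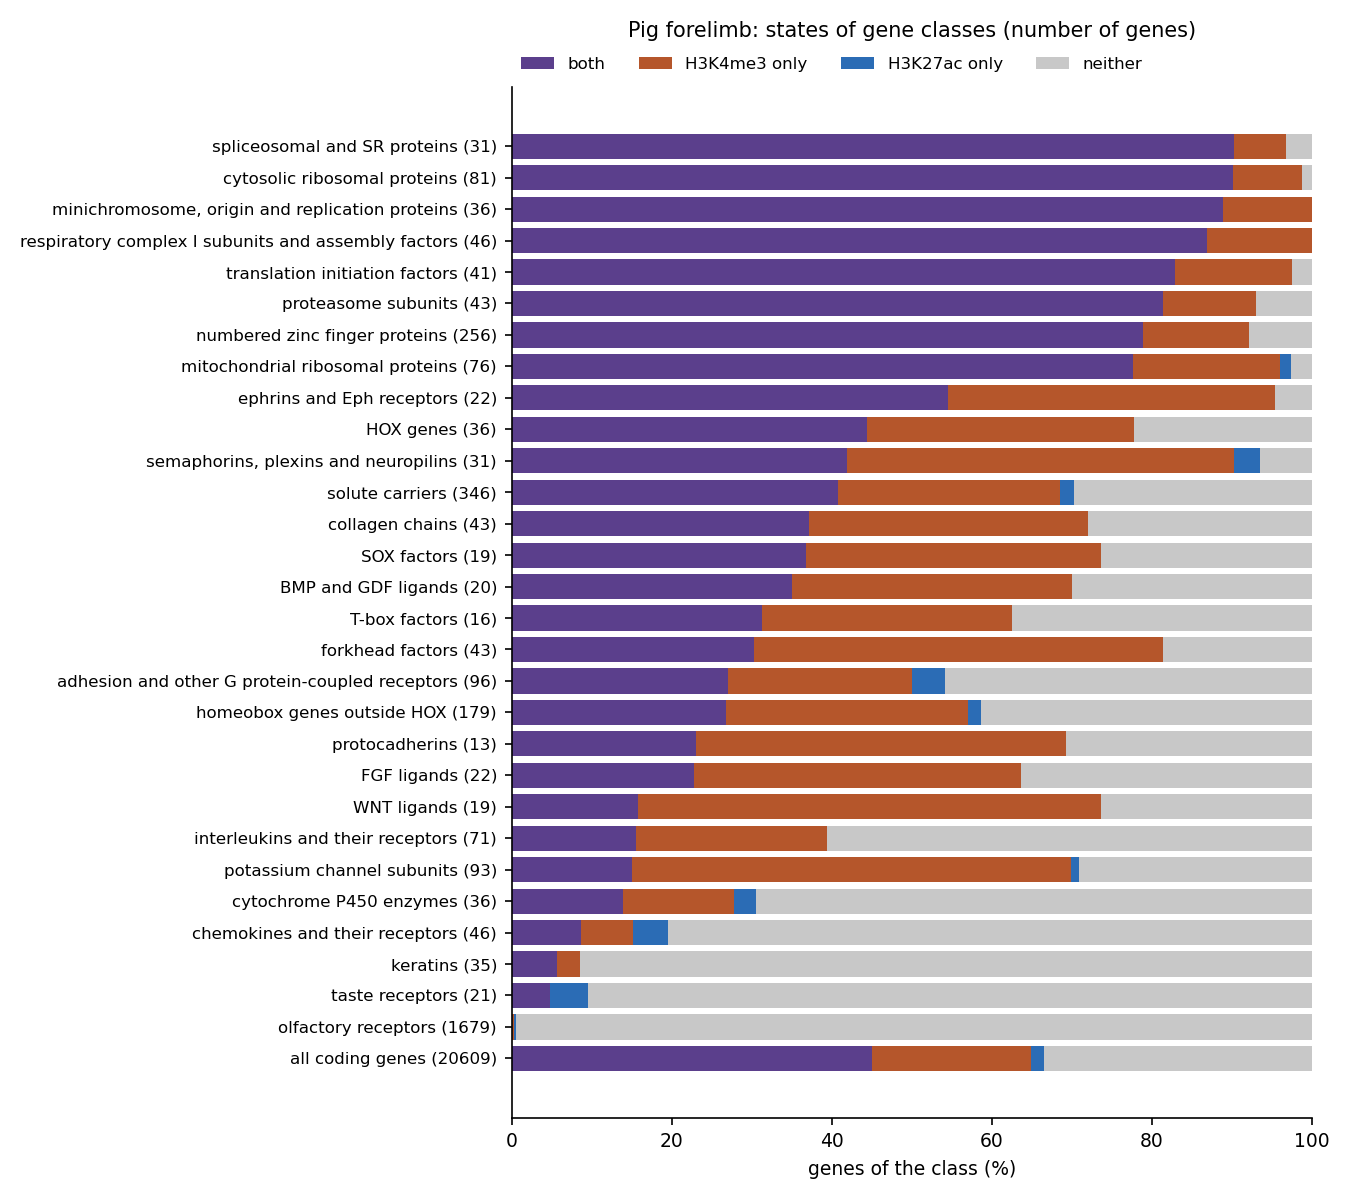
Percent of the genes of each class (x axis) with both marks, H3K4me3 only, H3K27ac only and neither, as stacked bars, with the number of genes of the class in brackets and all 20609 coding genes in the lowest bar. Both marks cover 73 of 81 cytosolic ribosomal protein genes, H3K4me3 only is the largest block at potassium channel subunits (51 of 93), and 1669 of 1679 olfactory receptors have neither.

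In the limb mesenchyme list, mostly transcription factors that pattern the limb bud, 26 of 32 genes had both marks (81.3%, against 45% of all genes), 4 had H3K4me3 only and 2 had neither. The median ratio of widths was 1.31, against 1.14 over all genes with both. TBX5, which initiates the forelimb, had 5 annotated TSSs and 3 peaks of each mark. The widest were 1367 bp of H3K4me3 and 1326 bp of H3K27ac. HAND2, a determinant of the posterior limb, had 1820 bp and 1694 bp, in peaks shared with LOC100517194. TWIST1, MEIS1, MEIS2, LMX1B, SALL4 and ZBTB16 had nearly equal peaks, with H3K4me3 at most 1.04 times as wide. A second group had H3K4me3 far wider than H3K27ac. TBX15, a T-box factor of proximal limb mesenchyme, had 5742 bp and 1856 bp (chromosome 4 at 101918891 to 102032280), and TBX3 had 3882 bp and 1399 bp. MSX1, a factor of the distal mesenchyme, had 4116 bp and 1932 bp. OSR1, OSR2, PRRX2, LHX9 and SHOX2 had ratios of 2.25 to 2.49. The genes with H3K4me3 only were HIC1 (3667 bp), IRX3 (3610 bp), TBX2 (2564 bp) and SALL1 (2349 bp). IRX3 and SALL1 had H3K27ac 1.03 and 1.41 kb from a TSS, just outside the window, TBX2 had it 2.79 kb away and HIC1 40.7 kb.

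PRRX1 and ALX4, both homeobox genes of limb mesenchyme, had neither mark within 1 kb of an annotated TSS. At PRRX1 the nearest H3K4me3 peak lay 1.08 kb and the nearest H3K27ac peak 1.17 kb away, with 4 distal H3K27ac peaks. At ALX4 they lay 29.4 kb and 16.6 kb away, with 11 distal H3K27ac peaks nearest to the gene. Among all 6906 genes with neither mark, 400 (5.79%) had H3K4me3 and 243 (3.52%) had H3K27ac between 1 and 2.5 kb from a TSS. The pig start sites are largely predicted models, and whether the annotated start is the one used in the limb was not tested.

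**Figure D5:**
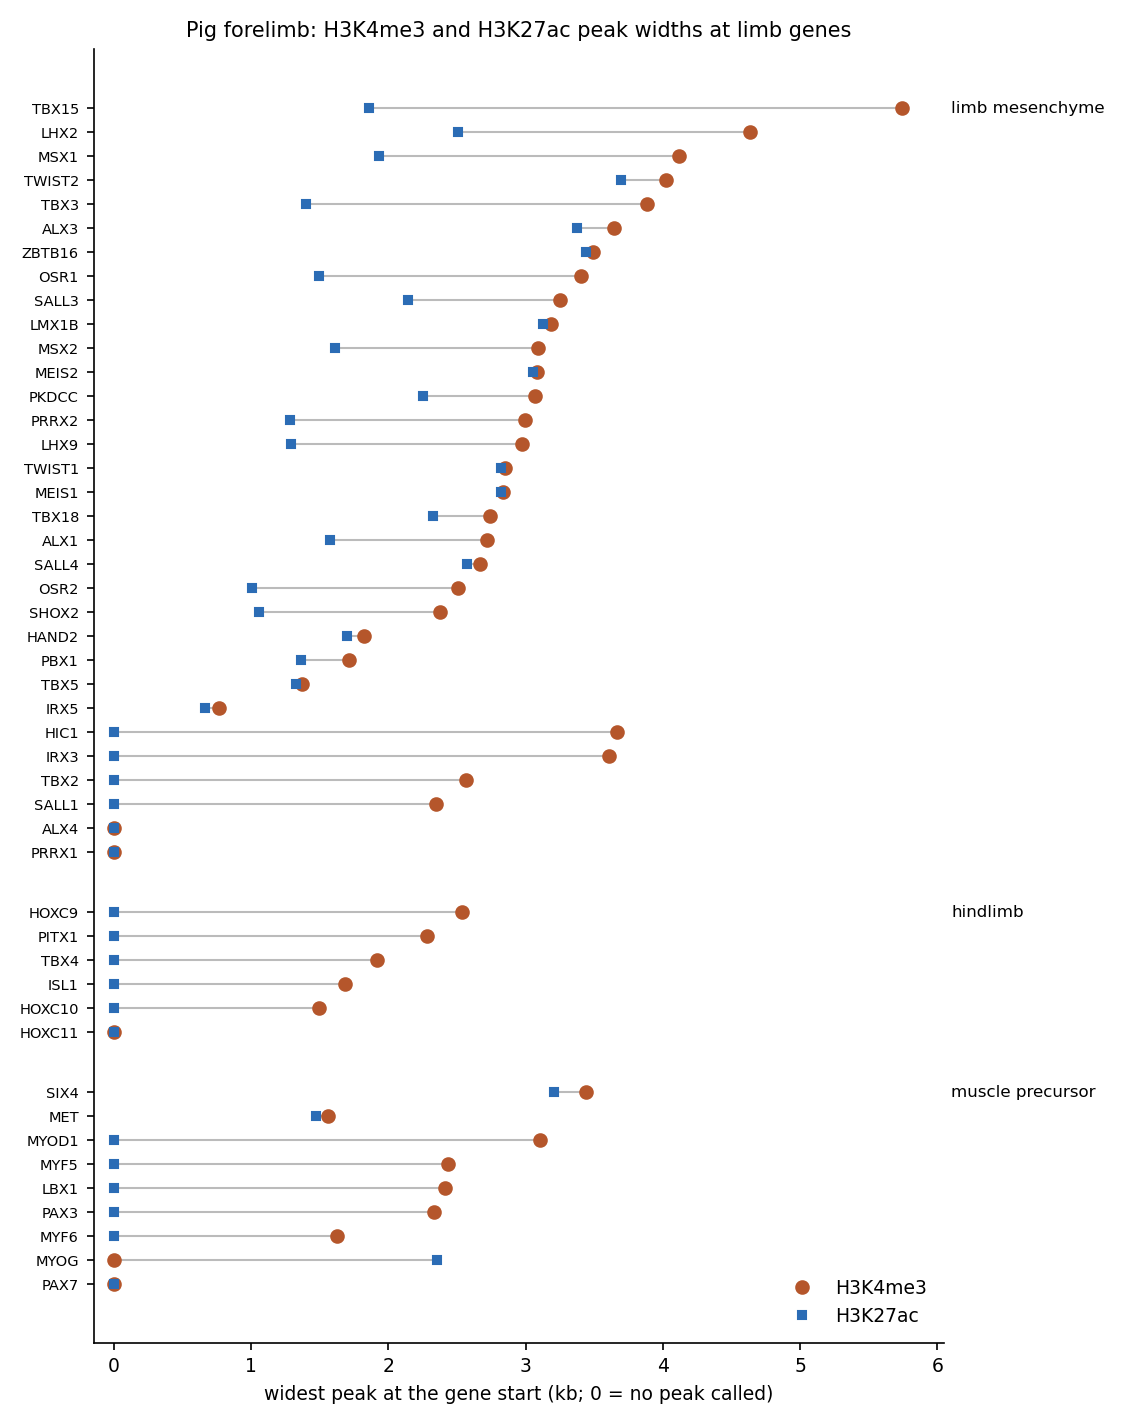
Width of the widest H3K4me3 peak (circles) and the widest H3K27ac peak (squares) at the start of each gene (x axis, kb; 0 where none was called) for genes of the limb mesenchyme, hindlimb and muscle precursor lists. H3K4me3 was the wider mark at all 26 limb mesenchyme genes with both marks, against 87.0% of all genes with both. The widths run from 761 and 662 bp at IRX5 to 5742 and 1856 bp at TBX15. Of the 6 hindlimb genes 5 have H3K4me3 only, against 19.8% of all genes.

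The 6 genes known from mouse and chick to be expressed in hindlimb rather than forelimb carried no H3K27ac at their start sites. Over all genes 46.7% had H3K27ac there. H3K4me3 only was the state of 5 of the 6, against 19.8% of all genes. PITX1, the hindlimb determinant, had 2277 bp of H3K4me3 and the nearest H3K27ac 43.8 kb away. TBX4 had 1917 bp with H3K27ac 3.53 kb away, ISL1 had 1684 bp with H3K27ac 132 kb away, and HOXC9 and HOXC10 had 2537 and 1493 bp. HOXC11 had neither, with H3K4me3 1.06 kb away. The posterior HOX genes differed by cluster. HOXA9, HOXA10 and HOXA13 had both marks, at 1315, 3790 and 3463 bp of H3K4me3 against 1303, 1285 and 1339 bp of H3K27ac. HOXA11 had H3K4me3 only, with H3K27ac 1.23 kb away. HOXD9 and HOXD10 shared peaks of 2966 bp of H3K4me3 and 2444 bp of H3K27ac, HOXD12 had 3167 and 3134 bp, HOXD13 had 2367 and 1583 bp, and HOXD11 had neither within 1 kb but H3K4me3 1.05 kb away. No posterior HOXC gene had H3K27ac. In the dense HOX clusters the states depended on the window. Within 1 kb, 16 of 36 HOX genes had both marks (44.4%, close to the 45% of all genes). Within 2.5 kb 26 did, against 46.6% of all genes.

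In hedgehog signalling the ligand lacked H3K27ac and the receiving side had it. SHH, the ligand secreted by the posterior signalling centre, had a wide H3K4me3 peak of 4288 bp and the nearest H3K27ac 34.9 kb away. The receptor PTCH1 (3715 bp of H3K4me3 and 3690 bp of H3K27ac), the transducer SMO and the coreceptors GAS1, CDON and BOC had both marks. So did the transcriptional effectors GLI1 (3344 and 1441 bp), GLI2 (2800 and 3141 bp) and GLI3 (3512 and 3355 bp, with 17 distal H3K27ac peaks). The target and antagonist HHIP also had both. SUFU, the inhibitor of GLI proteins, had H3K4me3 only, with H3K27ac 1.09 kb away. Of the 14 genes 12 had both marks (85.7%, against 45% of all genes).

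BMP genes had both marks at 17 of 18 (94.4%, against 45% of all genes). The ligands BMP2 (3362 and 1796 bp), BMP4 (4202 and 1632 bp) and BMP7 (2698 and 2161 bp) had wide H3K4me3, and BMP5 had 671 bp of H3K4me3 and 468 bp of H3K27ac. The receptors BMPR1A, BMPR1B, BMPR2 and ACVR1 and the transducers SMAD1 and SMAD5 had ratios of 0.997 to 1.16. The antagonists NOG (2470 and 2336 bp) and GREM1 (2564 and 2551 bp) had peaks of nearly equal width. The target genes ID1, ID2 and ID3 had H3K4me3 wider than H3K27ac, with ratios of 2.81, 4.89 and 1.45. SMAD6, an inhibitory SMAD, had neither, with H3K4me3 2.68 kb and H3K27ac 3.58 kb away.

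The states of FGF ligands and receptors were mixed, while the targets named all had both marks. The ligands of the ectodermal ridge were FGF8 with H3K4me3 only (1902 bp), FGF9 with both marks (1868 and 1782 bp), and FGF4 and FGF17 with neither. FGF10, the mesenchymal ligand that drives outgrowth, had neither within 1 kb, with H3K4me3 1.69 kb and H3K27ac 1.55 kb away. FGFR1, a receptor of limb mesenchyme, had both marks (3692 and 3310 bp), FGFR3 had H3K4me3 only (2885 bp), and FGFR2, whose epithelial form receives FGF10, had neither, with H3K4me3 1.66 kb and H3K27ac 1.75 kb away and 15 distal H3K27ac peaks. The targets and feedback inhibitors SPRY1, SPRY2, SPRY4, DUSP6, ETV4 and ETV5 all had both marks, with H3K4me3 widths of 2097 to 3136 bp. Of the 15 genes of the FGF list, 8 had both marks (53.3%, against 45% of all genes) and 4 had neither (26.7%, against 33.5%). Over the whole class of 22 FGF ligands, 5 had both marks (22.7%), 9 had H3K4me3 only (40.9%) and 8 had neither (36.4%). H3K4me3 only was the state of 19.8% of all genes, and the share of ligands with neither mark was close to that of all genes.

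Most WNT ligands had H3K4me3 without H3K27ac (57.9%, against 19.8% of all genes), whereas most receptors and effectors had both. Of 19 ligands, WNT5A (3518 and 2147 bp), which drives limb outgrowth, WNT11 (3323 and 3029 bp) and WNT5B (2405 and 1586 bp) had both marks. The 11 with H3K4me3 only included WNT3, WNT6 and WNT7A, ligands of limb ectoderm, at 1659, 3110 and 2733 bp, and 5 had neither. Among receptors, FZD2 and FZD7, ROR1 and ROR2, and LRP5 and LRP6 had both, and FZD1 had neither, with H3K4me3 2.46 kb and H3K27ac 2.34 kb away. FZD7 and the secreted antagonist SFRP2 were unusual in having the wider H3K27ac peak, at 3356 bp of H3K4me3 and 4498 bp of H3K27ac for FZD7 and 2392 and 3709 bp for SFRP2. The effectors CTNNB1, LEF1 and the target AXIN2 had both, and TCF7 had H3K4me3 only (2734 bp). The agonists RSPO2 and RSPO3 and the antagonist DKK1 had both.

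In the retinoid list 6 of 10 genes had both marks (60%, against 45% of all genes), among them every receptor matched. ALDH1A2 (1681 bp) and ALDH1A3 (1939 bp), which synthesise retinoic acid, and CYP26A1 (2198 bp), which degrades it, had H3K4me3 only, with H3K27ac 134, 16.1 and 218 kb away. RDH10, the first enzyme of synthesis, had both (3038 and 2756 bp), in peaks shared with the ribosomal protein gene RPL7. The receptors RARA, RARB, RXRA and RXRB had both, with ratios of 6.58, 1.35, 4.40 and 1.18, at RXRB in peaks shared with SLC39A7. Of the binding proteins, CRABP1 had both and CRABP2 had H3K4me3 only (3830 bp). CYP26B1, CYP26C1 and RARG of this list had no coding gene of that symbol in the annotation used.

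Chondrogenic genes had both marks at 9 of 18 (50%) and neither at 6 (33.3%), close to the 45% and 33.5% of all genes. The regulators SOX5 (2830 and 2538 bp) and SOX6 (4170 and 2474 bp) and the matrix genes COL2A1 (4392 and 2151 bp), COL9A1, COL9A2, COL11A1 and HAPLN1 had both, as did GDF5, a ligand of joints (2017 and 1235 bp). ACAN, the aggrecan gene (1915 bp), MATN3 (1725 bp) and IHH, the ligand of later growth plates (805 bp), had H3K4me3 only. COL11A2, MATN1, MATN4, RUNX2, RUNX3 and PTH1R had neither. Over 43 collagen chains of all kinds, 16 had both marks (37.2%), 15 had H3K4me3 only (34.9%) and 12 had neither (27.9%). The shares over all genes were 45%, 19.8% and 33.5% in the same order.

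The muscle precursor list held each of the 4 states. Of its 10 genes, 3 had both marks, 5 had H3K4me3 only, 1 had H3K27ac only and 1 had neither. Over all genes the shares of these states were 45%, 19.8%, 1.62% and 33.5%. PAX3 and LBX1, factors of migrating muscle precursors, and MYF5, MYF6 and MYOD1, myogenic determination factors, had H3K4me3 only, at 2331, 2415, 2435, 1625 and 3105 bp. Their nearest H3K27ac peaks lay 84.5, 18.0, 302, 293 and 127 kb away. MYOG, the differentiation factor, had the opposite state, with 2357 bp of H3K27ac over its TSS and the nearest H3K4me3 9.27 kb away. SIX4 and the receptor gene MET, which are also expressed outside muscle, had both marks, and PAX7 had neither.

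Among genes of other cell types that a dissected forelimb can hold, the share with both marks varied. Against 45% of all genes, both were present at 5 of 11 ectoderm genes (KRT8, EPCAM, GRHL2, PERP and TFAP2A), 2 of 12 endothelial genes (ERG and FLI1), 2 of 8 neural crest and glial genes (TFAP2B and ETS1) and 0 of 10 blood genes. H3K4me3 only was the state of 19.8% of all genes. It was found at 5 of 12 endothelial genes, KDR (1949 bp), FLT1 (2485 bp), TIE1 (2695 bp), SOX18 (2094 bp) and ESAM (1803 bp). At 2 of 10 blood genes, TAL1 (1357 bp) and EPOR (2195 bp), it was about as frequent as over all genes. The defining blood genes GATA1, KLF1, SPI1 and PTPRC had neither, as did PECAM1, CDH5, TEK and EMCN of endothelium. Outside the limb, 1 of 11 neuronal genes had both marks (DCX, in peaks shared with ALG13) and 4 had H3K4me3 only, such as SYT1 (2081 bp). Liver genes had neither at 8 of 10, against 33.5% of all genes. APOB had H3K27ac only (2263 bp), and FOXA3 had both in peaks shared with SYMPK. Heart genes had neither at 5 of 9, with H3K4me3 only at NKX2-5, TNNI3 and GATA4 and H3K27ac only at MYH7. The share of each cell type in the dissected tissue and its part in these states were not tested.

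Genes of the chromatin machinery itself mostly had both marks, against 45% of all genes. Polycomb genes had both at 16 of 17, with a median ratio of 1.06, and CBX7, a reader subunit, had H3K4me3 only (2004 bp). The catalytic subunits EZH1 and EZH2 had 1785 and 2609 bp of H3K4me3 and 1770 and 2429 bp of H3K27ac. Writers and erasers of H3K4 methylation had both at 10 of 14, with a median ratio of 1.35, including KMT2A (4234 and 3011 bp) and KMT2D (3931 and 3037 bp). KMT2B, SETD1B and WDR5 had H3K4me3 only, and SETD1A had neither, with H3K4me3 1.18 kb and H3K27ac 1.2 kb away. Writers and erasers of H3K27ac had both at 8 of 9, with a median ratio of 1.1. The acetyltransferase genes EP300 and CREBBP had 2262 and 2424 bp of H3K4me3 and 2056 and 2203 bp of H3K27ac. The housekeeping list had both at 11 of 13, with H3K4me3 only at GUSB and neither at TFRC, whose nearest H3K4me3 lay 5.1 kb away.

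The states were partly shared with the mouse forelimb at E11.5. Of 14245 genes with the same symbol in both species, those with both marks in pig had both in mouse in 77.6% of 7709 cases, against 51.1% of all shared genes. Those with H3K4me3 only in pig had the same state in mouse in 63.5% of 3386 cases, against 30.9% of all, and those with H3K27ac only in 7.76% of 219, against 0.962% of all. H3K4me3 was the wider peak at 87.0% of pig genes with both marks and at 69.3% of the 8416 such mouse genes, although the median ratios were 1.14 in pig and 1.14 in mouse; pig reads for these marks were sequenced at 50 bp and mouse reads were cropped to it.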

How the data were processed

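ChIPmentation of H3K4me3 and H3K27ac in pig day 23 forelimbs was compared, with 2 biological replicates per mark. Per the labels, the authors fixed chromatin with 1% formaldehyde, used 1 µg of antibody, sequenced these libraries at 50 bp, aligned reads to Sscrofa11.1 and called broad peaks with an irreproducible discovery rate below 0.01. The submitters' processing notes name Bowtie2 2.3.5 and SAMtools 1.9, besides Trimmomatic 0.39, FastQC 0.11.9 and deepTools 3.5; for the caller of peaks, the name is not given in the sources used. The deposited lists hold chromosome, start and end of consensus peaks, with no score, signal or p-value. The depth is therefore unknown, no spread between replicates can be computed and no comparison was tested; shares carry 95% Wilson intervals and medians carry order-statistic intervals.

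Peaks were read with Python 3.11.15, numpy 2.4.6, pandas 2.3.3 and scipy 1.17.1, and figures were drawn with matplotlib 3.10.9. Start sites came from the coding transcripts of the RefSeq annotation of Sscrofa11.1. Of 20661 coding records outside the mitochondrion, 52 that shared a symbol were left out. No peak passed a chromosome end, and 1 peak per list lay on an unmatched scaffold name and was not used. A peak counted for a gene when it overlapped by at least 1 bp the 1 kb on either side of any TSS, and widths are those of the widest such peak of each mark. Distances run from the nearest TSS. A distal H3K27ac peak overlapped no TSS window and no H3K4me3 peak and was assigned to the nearest coding TSS within 500 kb. CpG ratios used 500 bp on each side of the 5′ end of the gene record, and motifs the 200 bases upstream. Promoter windows were read from the genome sequence, since no table of pig promoters was used here. The assignment of states and widths was tested on simulated peaks.

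Gene classes were taken by patterns in gene symbols and RefSeq descriptions. Besides list members, the genes named are the 10 with the largest and the 10 with the smallest ratio of widths, the 10 with the widest peak in each single-mark state and the 10 with the widest pair, without LOC symbols. A few list and class members are counted but not reported by name here. Members of gene classes named in the text were chosen after their values were seen. The genes and lists were chosen with earlier results of these data known. Alternatives were other windows, start sites, overlaps and peak widths, and, added after the data were seen, named symbols, genes with 1 TSS and assembled chromosomes only.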

Additional observations from a re-analysis of the deposited data

Results flagged for a closer look

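H3K4me1, which took no part in the comparison, was called within 1 kb of a TSS at 1844 of the 6906 genes with neither H3K4me3 nor H3K27ac (26.7%). Over all coding genes the share was 61.2%, so H3K4me1 was less frequent at genes with neither mark than over all genes. It drew attention only as a signal in a list outside the main comparison, and the study has no input or control list to set it against. Among the genes described above with neither mark, it lay at PRRX1, ALX4, FGF10, FGFR2, RUNX2 and SMAD6. It also lay at FGF4, FGF17, PAX7, HOXC11, COL11A2, MATN1, MATN4, PTH1R, SPI1 and CDH5. Those without it included HOXD11, FZD1, RUNX3, SETD1A, TFRC, TEK, PECAM1, EMCN, GATA1, KLF1, PTPRC and ALB.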

How the results depend on the processing

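No paired analysis was possible because each list is a consensus over its replicates, with no value per replicate. For the same reason no replicate could be left out. With curated transcripts only (3965 genes), 1800 genes had both marks, 725 H3K4me3 only, 68 H3K27ac only and 1372 neither, with a median width ratio of 1.15 and H3K4me3 wider at 86.1%. With the wider 50% of each list (above 1679 bp for H3K4me3 and 1164 bp for H3K27ac), genes with both marks numbered 5781. Genes with H3K27ac only numbered 2133 in that setting, and H3K4me3 was wider at 88.4%. At genes sharing no peak the median width ratio was 1.13 and H3K4me3 was wider at 85.8%. With named symbols only, genes with neither mark numbered 3642. With 1 TSS only, 3733 genes had both marks, 2023 H3K4me3 only and 202 H3K27ac only. Fewer genes or peaks enter these settings by construction. Other windows, overlaps, joined peaks, start at the 5′ end of the gene record and assembled chromosomes left the 4 counts within 1.5 times. H3K4me3 stayed the wider mark under every alternative run, but the commonest state did not stay the same. Genes without either mark numbered 9642 with the wider 50% of peaks and 5498 with 1 TSS only, above the counts with both. Of 1680 values for classes, lists and base composition under the alternatives, 1379 stayed within 1.5 times or their interval and 301 moved, 97 of them with curated transcripts.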
